A study of Rattus norvegicus with 18 samples.

Results

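The circadian clock genes described here were 6 of 30560 genes in a count table from hearts of male Wistar rat offspring. They were Arntl (also called Bmal1; ENSRNOG00000014448), Clock (ENSRNOG00000002175), Per1 (ENSRNOG00000007387), Per2 (ENSRNOG00000020254), Nr1d1 (ENSRNOG00000009329) and Dbp (ENSRNOG00000021027). They were taken as a list of Ensembl IDs, with no threshold on a measured value, although the list was drawn up with earlier results of these data known. All 6 were among the 17009 genes that passed a filter on low counts. The table holds IDs only. The symbols came with the list, and no ID could be checked against an annotation, because the RefSeq gene table used here gives an Ensembl ID for 0 of its 47357 genes.

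The hearts were collected at 3 weeks of age from offspring of dams given vehicle (7 hearts), cannabidiol at 3 mg/kg/day (CBD3, 6 hearts) or cannabidiol at 30 mg/kg/day (CBD30, 5 hearts) in gestation. Cannabidiol is a cannabinoid of the cannabis plant that does not intoxicate. The labels name dosing of the dams alone, and neither litters nor the time of day at collection are given in the sources used here. P-values therefore treat each heart as independent. Bulk RNA was sequenced, so fewer cells of a type and less RNA per cell cannot be told apart, and the labelled tissue could not be checked against cardiac marker genes because the IDs carry no symbols. Each heart is named by the code of its column, such as 3.1, whose meaning the labels do not give.

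The clock is a feedback loop of transcription that runs in most cells, cardiomyocytes included, and in rodent hearts it times genes of metabolism over the day. The proteins CLOCK and BMAL1 pair, bind E-box sequences and switch on Per1, Per2, Nr1d1 and Dbp. PER proteins, with their CRY partners, then block that pair. REV-ERB alpha, the product of Nr1d1, represses Arntl through ROR elements (ROREs). DBP carries the rhythm onward to genes with D-box sequences. In mouse and rat heart, Arntl is known to peak at nearly the opposite time of day from Nr1d1 and Dbp.

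Motifs of the loop's own factors stood before the start sites of 3 of the genes, which are shown because the results turn on how these genes vary with each other. RefSeq promoter windows (build GRCr8, not the build of the counts) were found by symbol for 6 of the 6 genes, 8 windows in all. The 250 bases before the start are printed 5′ to 3′, with matches to the motifs searched in capitals.
Arntl (Bmal1), chr1:176766078-176766327, plus strand: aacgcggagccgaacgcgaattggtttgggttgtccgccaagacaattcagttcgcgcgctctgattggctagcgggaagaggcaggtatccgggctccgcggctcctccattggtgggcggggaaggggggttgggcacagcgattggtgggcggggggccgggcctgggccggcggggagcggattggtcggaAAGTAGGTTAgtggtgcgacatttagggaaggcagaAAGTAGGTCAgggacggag
Per2, chr9:99496994-99497243, minus strand: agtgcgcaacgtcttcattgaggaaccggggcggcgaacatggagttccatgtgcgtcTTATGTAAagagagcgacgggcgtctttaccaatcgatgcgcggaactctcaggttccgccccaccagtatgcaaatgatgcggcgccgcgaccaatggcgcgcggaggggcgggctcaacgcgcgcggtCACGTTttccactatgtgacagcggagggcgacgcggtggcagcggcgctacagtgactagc
Nr1d1, inner start site, chr10:84229455-84229704, minus strand: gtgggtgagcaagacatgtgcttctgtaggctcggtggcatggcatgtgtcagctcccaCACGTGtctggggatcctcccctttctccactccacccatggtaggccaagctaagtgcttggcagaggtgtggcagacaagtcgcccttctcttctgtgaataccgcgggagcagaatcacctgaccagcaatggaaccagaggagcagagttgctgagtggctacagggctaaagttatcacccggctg
In the Arntl window the capitals mark a RORE (TAGGTCA after AA and any base) 19 to 10 bases before the start and a form with a T in the next to last place (TAGGTTA after AA and any base) 55 to 46 bases before it. Of 33469 rat promoter windows of the same length, 0.206% held the first and 0.111% the second on either strand. In the Per2 window they mark a D-box (TTATGTAA, in 0.828% of windows) and an E-box variant (CACGTT, in 4.07%). In the Nr1d1 window they mark the E-box CACGTG, which 5.59% of windows held. The outer Nr1d1 window held the CACGTT variant on the other strand, and the Clock, Per1 and Dbp windows held none of the 5 motifs. Both strands were searched, no matches overlapped, and a match is a description of letters, not of a bound site. Sequence outside these 250 bases was not searched, so a window with no match does not show that the gene lacks such sites.

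Libraries held 44321480 to 80451013 counts in vehicle hearts, 56992503 to 89240727 in CBD3 hearts and 44127009 to 82220752 in CBD30 hearts. Each of the 6 genes was covered by at least 249 counts in every heart, the least being Arntl in the vehicle heart coded 3.2. Within each group, libraries with codes ending in 1 were larger than those ending in 2. In scaled expression 1 of 17009 genes (0.00588%) differed between these digits at an unadjusted p under 0.05 (edgeR), far under the 5% that such a threshold passes where groups do not differ. No source used here says whether the deposited counts had been adjusted for the digit. Comparisons by digit, tests between groups and correlations are all read with that limit. Vehicle hearts 1.1 and 2.1 and CBD30 heart 2.1 stood apart on the first principal component of log2 CPM (counts scaled by library size), computed without the 6 genes, at -57.9, -65.0 and 65.4. CPM values below are scaled by the TMM method, and compare a gene across hearts but not 1 gene with another.

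Per2, which encodes a repressor of the loop, had the lowest p of the 6 genes. It was at 28.0 to 64.6 CPM in vehicle hearts (median 50.9, n = 7), at 17.99 to 41.1 CPM in CBD3 hearts (median 31.7, n = 6) and at 26.1, 28.4, 23.4, 17.3 and 28.8 CPM in CBD30 hearts 1.1, 1.2, 2.1, 3.2 and 4.2. The 5 CBD30 hearts and the 6 CBD3 hearts were all below the vehicle median, and 3 of each lay below the lowest vehicle heart, the one coded 3.1. The ranges overlapped. Per2 averaged 24.8 ± 4.71 CPM in the 5 CBD30 hearts and 47.8 ± 13.0 CPM in the 7 vehicle hearts (mean ± SD). That is a log2 fold change of -0.95 ± 0.22 (SE), or a fold of 0.519 with a 95% interval of 0.376 to 0.718. Across the whole table it ranked 37 of 17009 genes by p, and its adjusted p was above the threshold of 0.05 (edgeR quasi-likelihood test, unadjusted p = 0.00044, Benjamini-Hochberg adjusted p = 0.176).

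The Per2 call for CBD30 depended on the tool and on 1 heart. DESeq2 gave an adjusted p of 0.0152 and a log2 fold change of -0.92, while limma voom gave an adjusted p of 0.178. Without the vehicle heart 3.1, edgeR gave an adjusted p of 0.0443 at a log2 fold change of -1.04, and 267 genes of the whole table were then called. The log2 fold change was -0.97 in hearts with codes ending in 1 and -0.89 in those ending in 2.

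Per1, its paralogue, which also responds acutely to stimuli in many tissues, had values of 77.9 to 126 CPM in vehicle hearts (median 105, n = 7) and 52.2 to 95.5 CPM in CBD3 hearts (median 87.8, n = 6). The CBD30 hearts, in the same order, were at 62.9, 84.5, 94.6, 57.8 and 58.5 CPM. As for Per2, the 5 CBD30 hearts and the 6 CBD3 hearts were below the vehicle median, with overlap between the groups. The mean was 71.6 ± 16.8 CPM in the 5 CBD30 hearts and 104 ± 18.7 CPM in the 7 vehicle hearts (± SD). The log2 fold change was -0.53 ± 0.16 (SE; edgeR unadjusted p = 0.00401, adjusted p = 0.195). It was -0.42 in hearts with codes ending in 1 and -0.57 in those ending in 2.

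Nr1d1 lay on the other side. It was at 21.5 to 48.8 CPM in vehicle hearts (median 27.7, n = 7), at 32.9 to 45.6 CPM in CBD3 hearts (median 40.0, n = 6) and at 43.4, 31.6, 51.3, 39.2 and 53.1 CPM in CBD30 hearts 1.1, 1.2, 2.1, 3.2 and 4.2. The 5 CBD30 hearts and the 6 CBD3 hearts were all above the vehicle median, and 2 of the 5 CBD30 hearts were above the highest vehicle heart, again the one coded 3.1. The mean was 43.7 ± 8.84 CPM in the 5 CBD30 hearts and 31.6 ± 9.42 CPM in the 7 vehicle hearts (± SD). The log2 fold change was 0.47 ± 0.17 (SE; edgeR unadjusted p = 0.0143, adjusted p = 0.223). Leaving out any 1 of the 18 hearts gave 0.39 to 0.60 (edgeR adjusted p = 0.0508 to 0.517). The highest of these, 0.60 with an edgeR adjusted p of 0.0508, came without the vehicle heart 3.1. The log2 fold change was 0.62 in hearts with codes ending in 1 and 0.35 in those ending in 2.

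**Figure D1:**
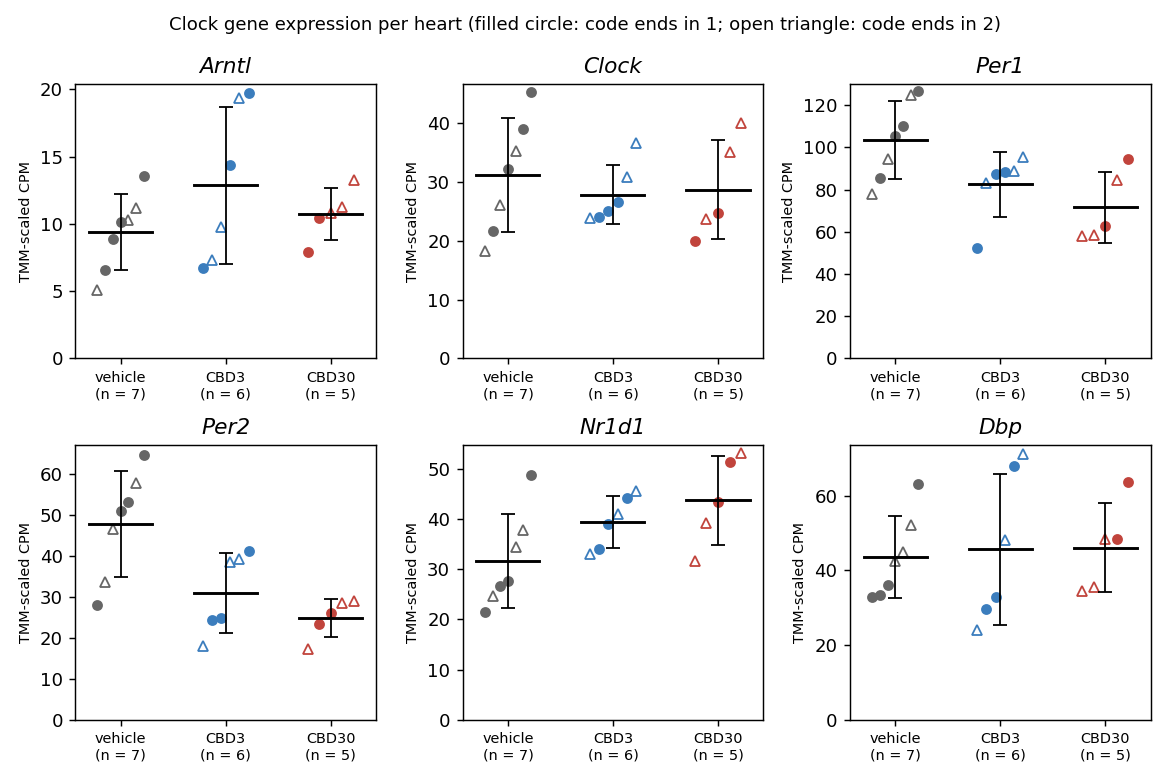
Expression of the 6 clock genes in each heart, in TMM-scaled CPM on axes that start at 0, by group from vehicle to CBD30. Points are hearts, bars are means and whiskers are SDs. The 5 CBD30 hearts sit at 17.3 to 28.8 CPM for Per2, against 28.0 to 64.6 CPM in the 7 vehicle hearts, while the groups lie over each other for Dbp and Clock.

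For Dbp, Arntl and Clock, hearts of both CBD groups lay on both sides of the vehicle median. Dbp was at 32.8 to 63.0 CPM in vehicle hearts (median 42.4), at 24.1 to 71.2 CPM in CBD3 hearts (median 40.4) and at 34.4 to 63.7 CPM in CBD30 hearts (median 48.3). Its log2 fold change for CBD30 against vehicle was 0.08, with a 95% interval of -0.44 to 0.60 (edgeR adjusted p = 0.883). Arntl was at 5.12 to 13.5 CPM in vehicle hearts (median 10.1), at 6.70 to 19.7 CPM in CBD3 hearts (median 12.1) and at 7.88 to 13.2 CPM in CBD30 hearts (median 10.8). Its log2 fold change for CBD30 was 0.19 (95% interval -0.37 to 0.75; edgeR adjusted p = 0.725). Clock was at 18.3 to 45.4 CPM in vehicle hearts (median 32.2), at 23.9 to 36.7 CPM in CBD3 hearts (median 25.8) and at 20.1 to 40.0 CPM in CBD30 hearts (median 24.8). Its log2 fold change for CBD30 was -0.12 (95% interval -0.56 to 0.32; edgeR adjusted p = 0.788).

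For CBD30 against vehicle, 0 of the 6 genes passed an adjusted p of 0.05 with edgeR, where 0% of 17009 genes did, and 0 with limma voom, which also called 0% of them. DESeq2 called 1 of the 6, Per2, where it called 133 of 15853 genes (0.839%). At an unadjusted p under 0.05 there were 3 of 6 (Per1 and Per2 lower, Nr1d1 higher), beside 16.4% of all genes (7.31% lower, 9.11% higher). No clock gene had CPM ranges free of overlap, which 0.629% of all genes had. The median log2 fold change of the 6 was -0.02, equal at this precision to the -0.02 of all genes tested, with 3 genes below 0, beside 53.2% of all genes.

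At the lower dose Per2, Per1 and Nr1d1 differed from vehicle hearts with the same signs and smaller sizes, and none passed the adjusted threshold. For CBD3 against vehicle the log2 fold change was -0.62 ± 0.21 (SE) for Per2, which averaged 31.0 ± 9.76 CPM in CBD3 hearts (SD, n = 6), against 47.8 ± 13.0 CPM in the 7 vehicle hearts. It was -0.33 ± 0.15 (SE) for Per1, at 82.6 ± 15.4 CPM in CBD3 hearts against 104 ± 18.7 CPM in vehicle hearts. For Nr1d1 it was 0.32 ± 0.17 (SE), at 39.4 ± 5.18 CPM in CBD3 hearts against 31.6 ± 9.42 CPM in vehicle hearts. Arntl, at 12.9 ± 5.82 CPM in CBD3 hearts against 9.38 ± 2.84 CPM in vehicle hearts, differed by 0.46 ± 0.25 (log2, SE). All 6 genes had an adjusted p of at least 0.552 (edgeR). No gene passed an adjusted p of 0.05 with edgeR, limma voom or DESeq2 among the 6, where edgeR and limma voom called 0% of all genes and DESeq2 called 19 of 17740 (0.107%). With edgeR 2 of 6 had an unadjusted p under 0.05 (Per1 and Per2, both lower), beside 8.92% of all genes (5.03% lower, 3.89% higher), and 3 of 6 lay below 0, beside 53.4%. No clock gene had CPM ranges free of overlap here, beside 0.194% of all genes. Both doses were set against the same 7 vehicle hearts, so their likeness is not independent.

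Between the doses no clock gene passed the test. For CBD30 against CBD3 the log2 fold changes were -0.32 ± 0.23 for Per2, -0.21 ± 0.17 for Per1, -0.27 ± 0.28 for Arntl and 0.15 ± 0.18 for Nr1d1 (SE; edgeR adjusted p = 0.999 for all 6 genes). With edgeR, limma voom and DESeq2 0 of 6 passed, beside 0% of all genes with edgeR and limma voom and 0.00411% (1 of 24347) with DESeq2, and 0 of 6 had an unadjusted p under 0.05, beside 1.73% of all genes (0.994% lower, 0.735% higher). With 3 of 6 below 0, the genes stood beside 46.9% of all genes. The 95% interval for Per2 was -0.79 to 0.15 on the log2 scale. The 6 genes all overlapped between the doses, and 0.218% of all genes did not.

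**Figure D2:**
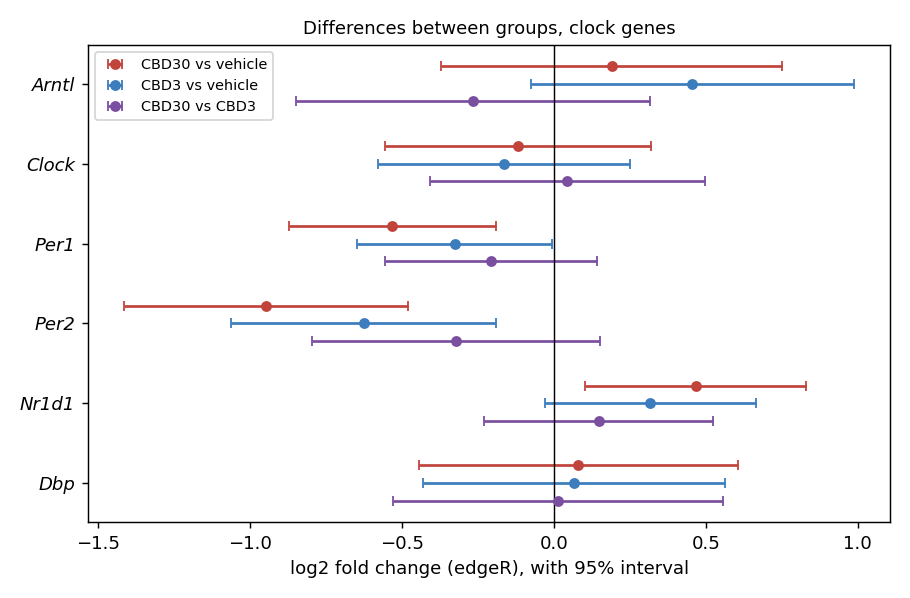
Log2 fold changes of the 6 clock genes with 95% intervals (edgeR), for CBD30 against vehicle, CBD3 against vehicle and CBD30 against CBD3. The intervals of Per2 and Per1 lie below 0 against vehicle at both doses and that of Nr1d1 lies above 0 for CBD30, before adjustment over 17009 genes, after which none passed.

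Between hearts of 1 group the clock genes were among the more variable genes. The SD of log2 CPM around the group means was 0.52 for Arntl, 0.48 for Dbp, 0.42 for Per2, 0.39 for Clock, 0.32 for Nr1d1 and 0.30 for Per1. For all 13527 genes averaging 1 CPM or more the median was 0.24. Arntl was above 91.9% of those genes, Dbp above 90.0% and Per1, the least variable of the 6, above 68.4%. Over all 18 hearts the highest value was 3.85 times the lowest for Arntl, 3.73 times for Per2 and 2.95 times for Dbp. Counting error is small at these depths, so these spreads are between libraries.

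The spread was not shared evenly by the groups. For Arntl the SD of log2 CPM was 0.48 among the 7 vehicle hearts, 0.68 among the 6 CBD3 hearts and 0.27 among the 5 CBD30 hearts. For Dbp it was 0.35, 0.65 and 0.37 in the same groups. In the CBD3 hearts Arntl was spread over 19.7, 19.4, 14.4, 9.78, 7.33 and 6.70 CPM, in hearts 1.1, 3.2, 2.1, 2.2, 1.2 and 3.1. Differences in spread were not tested.

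The clearest pattern was between Arntl and Dbp, which moved in opposite directions from heart to heart. The 2 CBD3 hearts with the highest Arntl, 1.1 and 3.2, had 29.5 and 24.1 CPM of Dbp, and the CBD3 hearts with the lowest Arntl, 1.2 and 3.1, had 71.2 and 67.9 CPM. Over the 18 hearts the Pearson correlation of log2 CPM was -0.835 (permutation p = 3e-05, adjusted p = 0.00045 over 15 pairs of genes). The Spearman correlation was -0.843 (permutation p = 5e-05, adjusted p = 0.00075). Centred on the group means the Pearson correlation was -0.888 (permutation p = 9e-05, adjusted p = 0.00135), and without the 2 hearts farthest from the median of Arntl it was -0.881. It was -0.845 in the 9 hearts with codes ending in 1 (exact permutation p = 0.0052, adjusted 0.039) and -0.826 in the 9 ending in 2 (exact permutation p = 0.0115, adjusted 0.173). Spearman's coefficient was -0.867 and -0.917 in the same sets (exact permutation adjusted p = 0.0338 and 0.0197).

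In both groups of at least 6 hearts the correlation was negative, and neither passed alone after adjustment. Pearson's r was -0.981 in the 6 CBD3 hearts (exact permutation p = 0.00833, adjusted 0.0625) and -0.731 in the 7 vehicle hearts (exact permutation p = 0.0623, adjusted 0.132). Leaving out any 1 of the 18 hearts gave -0.879 to -0.793. Among the 13526 other genes averaging 1 CPM or more, Dbp was the gene most opposite to Arntl by the centred correlation, rank 1, and Arntl was the gene most opposite to Dbp, also rank 1. This ranking is a description, and the genes share libraries and scaling.

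**Figure D3:**
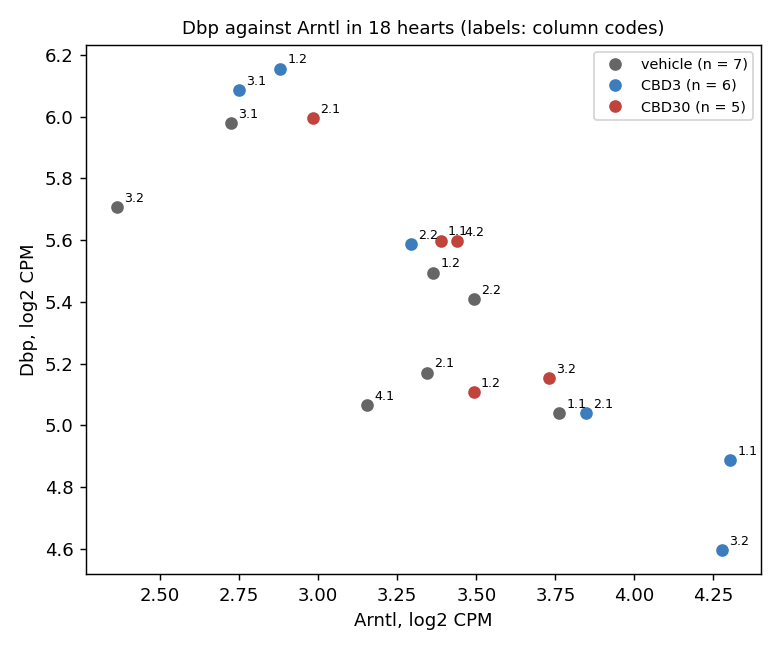
Dbp against Arntl in log2 CPM, both on log2 axes, with 1 point per heart coloured by group and labelled by code. The points fall along 1 descending band (Pearson r = -0.835, n = 18), with hearts of each group along it. CBD3 hearts 1.1 and 3.2 have the highest Arntl. Vehicle heart 3.2 has the lowest Arntl and CBD3 heart 1.2 the highest Dbp.

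The ratio of Dbp to Arntl counts, which does not depend on library scaling, ran over a range of 8.19-fold. It was lowest at 1.25 in CBD3 heart 3.2 and highest at 10.2 in vehicle heart 3.2. By group the ratio was 2.42 to 10.2 in vehicle hearts (median 3.78), 1.25 to 10.1 in CBD3 hearts (median 3.60) and 2.68 to 8.09 in CBD30 hearts (median 4.47). The groups overlapped over most of the range, and hearts of each group lay on both sides of the median of all 18, which was 4.08.

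Nr1d1, another of the genes that CLOCK and BMAL1 switch on, tended to follow Dbp, but the correlation over the 18 hearts did not pass. Their Pearson correlation over the 18 hearts was 0.536 (permutation p = 0.0228, adjusted p = 0.0685; Spearman 0.587, permutation p = 0.0121, adjusted p = 0.0723). Without the 2 hearts farthest from the median of Nr1d1 it was 0.573, and with scaling by library size only it was 0.436 (permutation p = 0.0711, adjusted p = 0.178). Centred on the group means it was 0.626 (permutation p = 0.00157, adjusted p = 0.0118). Nr1d1 then ranked 64 of 13526 genes by likeness to Dbp, and Dbp ranked 259 by likeness to Nr1d1. The uncentred Pearson correlation was 0.770 in hearts with codes ending in 1 and 0.194 in those ending in 2 (exact permutation adjusted p = 0.0604 and 0.855). The difference between these was not tested. Arntl and its repressor Nr1d1 had a Pearson correlation of -0.221 (permutation p = 0.379, adjusted p = 0.563; Spearman -0.271, permutation p = 0.275, adjusted p = 0.459), -0.231 without the 2 hearts farthest from the median of Arntl, and -0.494 when centred (permutation p = 0.0283, adjusted p = 0.142). Within the digits it was -0.355 and -0.0451.

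Per1 and Per2 varied together over the 18 hearts, with a Pearson correlation of 0.637 (permutation p = 0.00447, adjusted p = 0.0224; Spearman 0.519, permutation p = 0.0293, adjusted p = 0.11). Both were low in CBD30 heart 3.2 and high in vehicle hearts 4.1 and 2.2. Centred on the group means the correlation was 0.350 (permutation p = 0.182, adjusted p = 0.395), so part of it lay between the groups. Per2 then ranked 610 of 13526 genes by likeness to Per1, and Per1 ranked 2428 by likeness to Per2. The uncentred Pearson correlation was 0.542 (permutation adjusted p = 0.111) without the 2 hearts farthest from the median of Per1. It was 0.726 in hearts with codes ending in 1 and 0.532 in those ending in 2 (exact permutation adjusted p = 0.0604 and 0.345). In the 6 CBD3 hearts it was 0.093 (exact permutation adjusted p = 0.986). In the 7 vehicle hearts it was 0.728 (exact permutation adjusted p = 0.132). The difference between these groups was not tested.

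Per2 and Nr1d1 ran against each other, although the same activator drives both. Their Pearson correlation was -0.654 (permutation p = 0.00337, adjusted p = 0.0224; Spearman -0.573, permutation p = 0.0145, adjusted p = 0.0723). It was -0.420 when centred (permutation adjusted p = 0.362), so part of it lay between the groups. Nr1d1 then ranked 1195 of 13526 genes from the most opposite to Per2, and Per2 ranked 1859 from the most opposite to Nr1d1. The uncentred Pearson correlation was -0.457 without the 2 hearts farthest from the median of Per2 (permutation adjusted p = 0.194). It was -0.815 and -0.455 in hearts with codes ending in 1 and 2. Without vehicle heart 4.1 the adjusted p was 0.0948 at a correlation of -0.562, and without vehicle heart 2.2 it was 0.062 at -0.602. Those hearts also decided the call for Per1 and Per2, at 0.566 (adjusted p = 0.0948) and 0.582 (adjusted p = 0.062). In the 6 CBD3 hearts r for Per2 and Nr1d1 was 0.172 (exact permutation p = 0.715, adjusted 0.865), and in the 7 vehicle hearts it was -0.914 (exact permutation p = 0.00278, adjusted 0.0367). For Per1 and Nr1d1 it was -0.564 over all hearts (permutation p = 0.0159, adjusted p = 0.0595; Spearman -0.432, permutation p = 0.0751, adjusted p = 0.225), and -0.742 without the 2 hearts farthest from the median of Per1 (adjusted p = 0.0069). It was -0.481 and -0.694 in hearts with codes ending in 1 and 2, 0.596 in the CBD3 hearts (exact permutation adjusted p = 0.656) and -0.904 in the vehicle hearts (exact permutation adjusted p = 0.0367). These differences between groups were not tested.

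**Figure D4:**
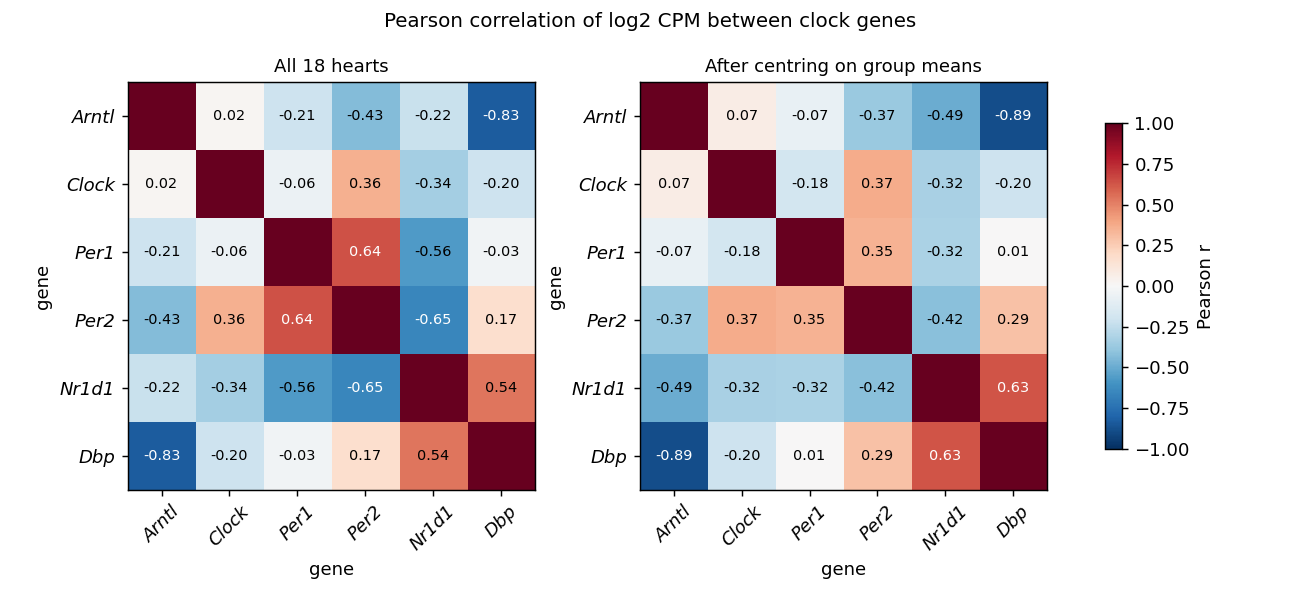
Pearson correlations of log2 CPM between the 6 clock genes over all 18 hearts (left) and after centring on group means (right), on a colour scale of -1 to 1. The Arntl and Dbp pair is at -0.835 on the left and -0.888 on the right, while Per1 and Per2 are at 0.637 on the left and 0.350 on the right.

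Clock, although its protein is the partner of BMAL1, had no correlation with Arntl that passed. Their Pearson correlation was 0.0192 (permutation p = 0.94, adjusted p = 0.94; Spearman 0.0857, permutation p = 0.737, adjusted p = 0.737), 0.192 without the 2 hearts farthest from the median of Arntl, and 0.321 and -0.299 in hearts with codes ending in 1 and 2. Clock instead followed the first principal component, with a Pearson correlation of -0.844 (permutation p = 1e-05, the smallest these permutations can give, adjusted p = 0.00012 over 12 relations with library measures; Spearman -0.860, permutation p = 3e-05, adjusted p = 0.00036). It was -0.775 without the 2 hearts farthest out on that component and -0.967 and -0.931 in hearts with codes ending in 1 and 2. The component is the direction in which the genes together vary most, and the share of genes that follow it as closely was not computed. By the centred correlation Per2, at 0.374, ranked 3912 of 13526 genes by likeness to Clock. Clock was at 39.1 and 45.4 CPM in vehicle hearts 1.1 and 2.1 and at 20.1 CPM in CBD30 heart 2.1. With the component as a covariate its log2 fold change for CBD30 against vehicle was 0.26, against -0.12 without it, and within hearts with codes ending in 1 and 2 it was -0.61 and 0.31. A difference between the digits of 0.94 in that fold change did not pass (edgeR interaction, unadjusted p = 0.029, adjusted p = 0.376). At either dose 0 of the 6 genes had such an interaction after adjustment, where edgeR called 1 of 17009 genes for CBD30 and 0 for CBD3, and 2187 and 1535 had an unadjusted p under 0.05.

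Per2 and Nr1d1 also moved with the first component, at -0.590 and 0.601 (Pearson; permutation p = 0.00879 and 0.00784, adjusted p = 0.0352 for each; Spearman -0.600 and 0.467, permutation p = 0.0094 and 0.0518, adjusted p = 0.0564 and 0.207). Without the 2 hearts farthest out these were -0.462 and 0.475. Within hearts with codes ending in 1 they were -0.863 and 0.839, and within those ending in 2 they were -0.0767 and -0.302, and neither difference between the digits was tested. The component averaged -16.4 ± 36.1 among vehicle hearts (SD, n = 7), 6.99 ± 15.7 among CBD3 hearts (n = 6) and 14.6 ± 31.0 among CBD30 hearts (n = 5). With it as a covariate the CBD30 log2 fold change was -0.72 for Per2, 0.32 for Nr1d1 and -0.56 for Per1 (edgeR adjusted p = 0.487, 0.663 and 0.487). Arntl and Dbp were at -0.0497 and 0.301 with the component (Pearson; permutation p = 0.846 and 0.227, adjusted p = 0.923 and 0.68; Spearman 0.065 and 0.129, permutation p = 0.798 and 0.608), or 0.0602 and 0.172 without the 2 hearts farthest out. The part of the component in the group differences was not tested further. The library total had no relation with any of the 6 genes that passed (Pearson -0.195 to 0.2, lowest adjusted p = 0.735).

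**Figure D5:**
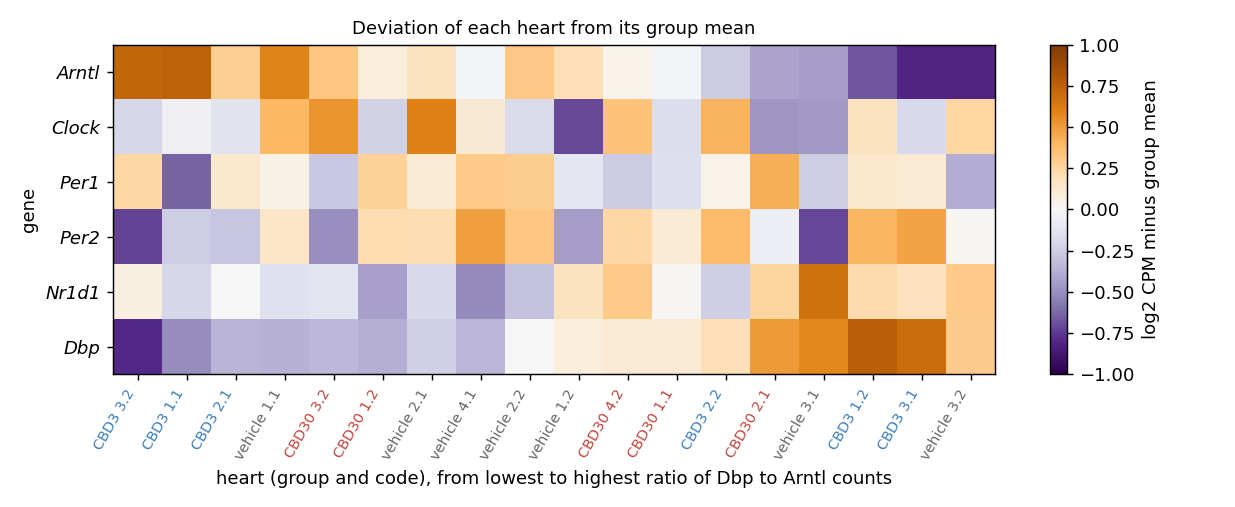
Deviation of log2 CPM from the group mean for the 6 clock genes (rows) in the 18 hearts (columns, named by group and code, ordered from the lowest to the highest ratio of Dbp to Arntl counts), on a colour scale of -1 to 1. The order fixes the opposite gradients of Arntl and Dbp, and Nr1d1 follows Dbp (r = 0.626) while Clock shows no gradient.

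The remaining 8 pairs of the 15 had Pearson correlations of -0.434 to 0.357, none with an adjusted p under 0.18 (permutation test). Of these, 2 pairs with Clock passed when fewer hearts were used. Clock and Nr1d1 were at -0.341 over all hearts, at -0.853 in the 9 with codes ending in 1 (exact permutation adjusted p = 0.039; Spearman -0.95, adjusted p = 0.00529) and at 0.362 in the 9 ending in 2 (exact permutation adjusted p = 0.635). Clock and Per2 were at 0.357 over all hearts, at 0.776 with codes ending in 1 (exact permutation adjusted p = 0.0499) and at -0.0444 with codes ending in 2 (exact permutation adjusted p = 0.913). Without CBD30 heart 3.2 they were at 0.576 (permutation adjusted p = 0.0497). Some of the 8 pairs had opposite signs in CBD3 and vehicle hearts, and none passed there after adjustment. Per2 with Dbp was at 0.951 in the 6 CBD3 hearts (exact permutation adjusted p = 0.0625). In the 7 vehicle hearts it was at -0.79 (exact permutation adjusted p = 0.132). Arntl with Per2 was at -0.92 and 0.352 in those groups (exact permutation adjusted p = 0.146 and 0.53). Such differences were not tested. Of all 15 pairs, 3 passed an adjusted p of 0.05 by Pearson's coefficient, namely Arntl with Dbp, Per1 with Per2 and Per2 with Nr1d1, and 1 passed by Spearman's, Arntl with Dbp. These counts pool hearts of groups whose means may differ. Centred on the group means, 2 pairs passed by either coefficient, Arntl with Dbp and Nr1d1 with Dbp. Per1 with Per2 and Per2 with Nr1d1 then did not pass. Among genes outside the list, the likest to Arntl over the 18 centred hearts were ENSRNOG00000013408 (Pearson r = 0.790) and ENSRNOG00000021919 (0.775). Those likest to Dbp were ENSRNOG00000004640 (0.824) and ENSRNOG00000042717 (0.807). Symbols for these IDs were not in any source used here.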

How the data were processed

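Bulk RNA of 18 hearts was measured, per the labels' protocols from messenger RNA libraries of a stranded kit. The values are unnormalised counts per Ensembl ID as the authors deposited them, in whole numbers. featureCounts, edgeR and the build mRatBN7.2 are listed per the submitters' processing notes. Aligner, annotation and counter settings, and any adjustment before deposit, were not given in the sources used here. The column names place 14 hearts under a replicate number, and 4 vehicle columns, whose codes stand in the labels of 2 samples each, were used as vehicle hearts without one.

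Genes were kept by filterByExpr (minimum count 10, minimum total count 15) and scaled by TMM. All 18 hearts entered 1 quasi-likelihood fit of edgeR 4.0.16 in R 4.3.3, with Benjamini-Hochberg adjustment over all 17009 genes and a threshold of 0.05. Standard errors were derived from the F statistic. The log2 CPM used a prior count of 2. Correlations used two-sided permutation tests with 100000 resamples, or exact ones under 10 hearts, in Python 3.11.15, adjusted over 15 pairs for each coefficient. All 46 pairs of libraries within groups differed by more than sampling noise (chi-square over its degrees of freedom at least 34.4). The code was tested on simulated data. Alternatives used DESeq2 1.42.0, limma 3.58.1, other scalings, filters, covariates and samples.

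All 6 clock genes are named, with the 2 IDs likest to Arntl and to Dbp. The members, as a list of IDs with no threshold on a measured value, and the other lists were chosen with earlier results of these data known. A list of other clock genes and lists of cell type markers were not analysed here, because 0 of 30560 IDs could be paired with a symbol.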

Additional observations from a re-analysis of the deposited data

Results flagged for a closer look

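In CBD3 hearts, Per1 was at 52.2 CPM in the heart coded 1.1, far below the nearest other, at 83.2 CPM. Of 18 sets of 5 to 7 hearts examined for a heart far from the others, this was the 1 found, and chance gives about 1 in 20. Without that heart the Per1 log2 fold change for CBD3 against vehicle was -0.22 (edgeR adjusted p = 0.713), against -0.33 with it.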

How the results depend on the processing

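With edgeR, 0 clock genes passed in every alternative and comparison, except Per2 for CBD30 without the vehicle heart 3.1. DESeq2 called 1 (Per2) for CBD30, also on the genes tested with edgeR. Leaving out single hearts gave 0 to 1 called clock genes for CBD30. Whole-table calls were 133, 19 and 1 with DESeq2 (160, 8 and 1 on the edgeR genes) for CBD30, for CBD3 and between doses, 1 between doses with only those groups fitted, and 0 to 267 for CBD30 over the left-out hearts (267 without vehicle 3.1, 1 without CBD30 1.1). The 2 clock genes at an unadjusted p under 0.05 for CBD3 became 1 with relative log expression factors, the digit as a covariate, DESeq2 (both gene sets) or the 14 numbered hearts, 0 in hearts with codes ending in 2, and 1 to 3 over the left-out hearts (1 without vehicle 2.1, 2.2 or 4.1, CBD3 1.1 or 2.1, or CBD30 1.1). Per1, Per2 and Nr1d1 kept their direction against vehicle in every alternative run. The causes were not tested.

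With the replicate number as a block on the 14 numbered hearts, 0 clock genes were at an unadjusted p under 0.05 for CBD3. Same-numbered hearts did not deviate together (correlations of -0.311 to 0.467 in 8 pairs, 3 over 0.1; 2 of 14 hearts correlated best with their own number), so the numbers are not taken as pairs. Small log2 fold changes turned round. For CBD30 against vehicle, Clock was 0.52 with the replicate block, 0.12 in the same hearts without it, 0.31 for digit 2, 0.21 without the 3 hearts far out on the first component and 0.26 with that component as a covariate. Dbp was -0.29, -0.0036, -0.24, -0.18 and -0.078 under those settings, and -0.063 to 0.19 over the left-out hearts, and Arntl was -0.077 for digit 1. For CBD3, Clock was 0.49 with the block, 0.077 without it, 0.20 for digit 2, 0.058 without the 3 hearts and 0.15 with the component. Dbp was -0.29, -0.022, -0.051 and -0.015 under the block, no block, 3 hearts and component, -0.017 with limma voom, and -0.10 to 0.20 over the left-out hearts. Between doses, Clock was -0.15 and Per1 0.068 for digit 1, with Clock at -0.10 to 0.15 over the left-out hearts. Dbp was -0.0036 with library size only, -0.0049 with the block, -0.28 for digit 2, -0.13 without the 3 hearts, -0.063 with the component and -0.13 to 0.19 over the left-out hearts.

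The 3 pairs correlated by Pearson's coefficient became 0 in hearts with codes ending in 2 or in CBD3 hearts, where fewer hearts remain, 1 without the 3 hearts and 1 to 5 over the left-out hearts (1 without vehicle 4.1 or 2.2, 5 without CBD3 3.2 or CBD30 3.2). By Spearman's coefficient 1 pair, Arntl with Dbp, passed in hearts with codes ending in 2, and 0 passed in CBD3 hearts. Centred on the group means there were 2, Arntl with Dbp and Nr1d1 with Dbp. Arntl and Clock had r of -0.299 for digit 2, -0.121 without the 3 hearts, -0.343 in CBD3 hearts and -0.0668 to 0.14 over the left-out hearts. In CBD3 hearts Per1 and Per2 with Nr1d1 were at 0.596 and 0.172, and for digit 2 Clock with Per2 and with Nr1d1 was at -0.0444 and 0.362. The fits without 3 hearts, with the component, on 14 hearts without a block, of 1 group, and DESeq2 on the edgeR genes were chosen after seeing the data.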
